A study of Mus musculus with 14 samples.

Results

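The Nkx genes described here encode homeodomain transcription factors of the Nkx2, Nkx3 and Nkx6 subfamilies. The 10 members were Nkx2-1, Nkx2-2, Nkx2-3, Nkx2-4, Nkx2-5, Nkx2-9, Nkx3-2, Nkx6-1, Nkx6-2 and Nkx6-3, and their signal was read from every H3K27me3 peak within 10 kb of the RefSeq gene body of a member. This rule took 57 of the 74458 peaks in the deposited table, and each of the 10 genes had at least 2 of them. In all, 30964 RefSeq genes had a peak in such a window. The libraries were made by Cut&Tag, in which the transposase Tn5 is tethered to an antibody and inserts sequencing adapters next to the mark, from mouse embryonic stem cells (mESCs) of the G4 line, a 129/Sv x C57BL/6 F1 hybrid. Cells carried a homozygous CRISPR-Cas9 deletion of the loop anchor at Hmx1, Wnt6 or the Hoxa gene cluster, profiled in 2, 2 and 3 H3K27me3 libraries in that order, and all were maintained with LIF on CD1 feeder cells. In each comparison the libraries of a deletion were set against those of the other 2 deletions together, because no column of unedited cells was analysed here. The study mentions deletion clones without giving their number for these libraries, and the labels name none, so that an effect of a deletion and a difference between clones cannot be told apart. Nothing states whether the replicates were separate cultures, and p-values measure only the spread between these libraries.

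H3K27me3 is deposited by Polycomb repressive complex 2 at silent developmental genes, and in mESCs it typically covers CpG-rich start regions of genes for lineage-specifying transcription factors. Nkx factors belong to this class. They pattern the ventral neural tube and specify thyroid, lung, heart, spleen, pancreas and axial skeleton.

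Total counts over all peaks ranged from 6016500 to 36563541 per library, and the Nkx peaks took between 0.333% and 0.355% of them. The lowest summed count of any Nkx gene in any library was 787. A deleted run was defined as the longest stretch of consecutive peaks under 10% of the mean of the other libraries, with weak peaks skipped. In each deletion this run lay over the target. It held 46 peaks on chromosome 6 for Hoxa, 34 peaks on chromosome 1 for Wnt6 and 11 peaks on chromosome 5 for Hmx1. No Nkx gene lay on chromosome 6 or 1. Nkx3-2 and Nkx6-1 lay on chromosome 5, at 6.36 Mb and 66.3 Mb from the Hmx1 run. The other genes lay on chromosome 2 (Nkx2-2, Nkx2-4), 7 (Nkx6-2), 8 (Nkx6-3), 12 (Nkx2-1, Nkx2-9), 17 (Nkx2-5) and 19 (Nkx2-3). Many of the peaks also lay within 10 kb of other genes, mostly long non-coding RNA genes. All 9 peaks of Nkx2-2 were shared with its antisense partner Nkx2-2os, 3 of the 4 peaks of Nkx6-2 with Inpp5a, and 4 of the 5 peaks of Nkx6-3 with Ank1, and the counts cannot be divided between such neighbours.

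To show what lies under these peaks, the 250 bases before the start site are given for 4 genes, from the RefSeq promoter table of assembly GRCm38.p6 (the build mm10 of the peaks), 5' to 3' on the coding strand, with every CG dinucleotide in capitals. The first 3 windows lay wholly or partly under a peak and the fourth under none. The windows were chr5:41764221-41764470 for Nkx3-2, chr5:101664712-101664961 for Nkx6-1, chr7:139582798-139583047 for Nkx6-2 and chr12:56536909-56537158 for Nkx2-1, all on the minus strand.
Nkx3-2: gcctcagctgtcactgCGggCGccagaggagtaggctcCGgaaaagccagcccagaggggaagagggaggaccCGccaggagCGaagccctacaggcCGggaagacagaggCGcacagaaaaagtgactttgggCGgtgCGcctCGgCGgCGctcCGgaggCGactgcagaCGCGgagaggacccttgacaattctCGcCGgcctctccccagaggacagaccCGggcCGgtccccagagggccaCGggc
Nkx6-1: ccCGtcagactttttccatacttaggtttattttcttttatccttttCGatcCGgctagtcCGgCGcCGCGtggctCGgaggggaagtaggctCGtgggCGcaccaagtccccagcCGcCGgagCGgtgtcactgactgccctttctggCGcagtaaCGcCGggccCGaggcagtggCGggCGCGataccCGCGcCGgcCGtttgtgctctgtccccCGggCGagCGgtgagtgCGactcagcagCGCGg
Nkx6-2: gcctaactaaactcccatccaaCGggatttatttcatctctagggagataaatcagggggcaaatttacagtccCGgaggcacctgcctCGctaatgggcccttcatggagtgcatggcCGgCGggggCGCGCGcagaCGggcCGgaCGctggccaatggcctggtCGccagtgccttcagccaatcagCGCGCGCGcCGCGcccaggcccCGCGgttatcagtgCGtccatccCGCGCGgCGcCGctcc
Nkx2-1: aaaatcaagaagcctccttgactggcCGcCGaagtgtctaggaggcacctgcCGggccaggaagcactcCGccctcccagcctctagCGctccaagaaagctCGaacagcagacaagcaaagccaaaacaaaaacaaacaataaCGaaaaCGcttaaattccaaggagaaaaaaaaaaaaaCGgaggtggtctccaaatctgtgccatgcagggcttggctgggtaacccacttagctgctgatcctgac

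The Nkx3-2 window held 21 CG dinucleotides, that of Nkx6-1 held 30 and that of Nkx6-2 held 26. Both chromosome 5 windows lay under a peak over all 250 bases, and 110 bases of the Nkx6-2 window did. The Nkx2-1 window held 9 CG dinucleotides, and its end at the start site lay 104 bp from the nearest peak, which lay inside the gene. Such windows were found for 9 of the 10 genes, all but Nkx6-3. A peak overlapped 7 of these 9 windows (77.8%), against 13960 of 32851 windows of all genes (42.5%). The 7 Nkx windows under a peak had a median of 21 CG dinucleotides and the other 2, of Nkx2-1 and Nkx2-2, a median of 8.5. The groups overlapped, since the Nkx2-5 window, with 50 bases under a peak, held 8 CG dinucleotides and that of Nkx2-2 also 8. Over all genes the medians were 16 under a peak and 3 elsewhere, and 92.1% of all windows held a CG on either strand. These counts describe the letters in the windows, and the factors that bind there were not measured.

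Nkx peaks were wide and strong. Their width ranged from 238 to 4062 bp with a median of 760 bp, against a median of 476 bp over all peaks. Their mean level, in CPM (counts scaled to a fixed library total, with TMM factors), ranged from 3.24 to 246 with a median of 40.4, against a median of 3.80 over all peaks. Per kb of peak, which allows for width, the medians were 47.4 CPM for the Nkx peaks and 7.74 CPM for all peaks. A mean level of at least 100 CPM was reached by 13 of the 57 Nkx peaks (22.8%) and by 3.02% of all peaks. Wider peaks held more CPM, with a Spearman correlation of 0.896 between width and CPM over the 57 Nkx peaks and of 0.803 over all peaks, which share the same libraries. CPM is counted over the whole peak, so that a positive correlation follows in part from width itself. Of the Nkx peaks, 24 overlapped the gene body of a member.

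The place of the strongest peak differed between the genes. Nkx6-1 had the strongest and widest, a peak of 4062 bp at chr5:101661695-101665757 that spanned the start site and reached 246 ± 9.94 CPM (SD, n = 7 libraries), above 99.8% of all peaks. In Nkx2-9 the strongest peak (chr12:56611536-56613417, 176 ± 9.86 CPM) and in Nkx3-2 the strongest peak (chr5:41763107-41764729, 168 ± 11.0 CPM) also spanned the start site. Nkx2-4 had nearly all of its signal, 97.6%, in a single peak over the start site (chr2:147083575-147086184, 135 ± 8.33 CPM). Of the 9 genes with an annotated start site in the promoter table, 7 had a peak over it.

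Nkx2-1 and Nkx2-2 had none there. The strongest Nkx2-1 peak lay inside the gene (chr12:56533014-56534971, 153 ± 10.8 CPM), with its midpoint 2.92 kb into the transcribed strand. In Nkx2-2 the strongest peak (chr2:147193401-147195766, 174 ± 11.2 CPM) was centred 8.18 kb upstream of that start site, at the far end of the gene body as annotated, which extends beyond it. The Nkx2-5 maximum (chr17:26849666-26852697, 129 ± 6.91 CPM) was centred 9.62 kb upstream, outside the gene body. The remaining maxima lay outside the gene body as well, at chr7:139583188-139585364 for Nkx6-2 (117 ± 5.63 CPM), chr19:43616088-43617472 for Nkx2-3 (90.2 ± 5.80 CPM) and chr8:23149331-23150801 for Nkx6-3 (51.9 ± 8.39 CPM). The Nkx2-3 signal was spread over 9 peaks, the strongest of which held 19.2% of it. These maxima are of CPM over the whole peak, which favours wide peaks. Per kb of peak, the Nkx2-5 maximum had 42.6 CPM and the peak over its start site 91.1. For Nkx6-2 the values were 53.9 and 89.9. The Nkx2-2 maximum had 73.7 CPM per kb, against 111 in another peak of its gene body. Another peak was also higher per kb in Nkx2-3 and Nkx6-1. In Nkx2-1, Nkx2-4, Nkx2-9, Nkx3-2 and Nkx6-3 the maximum was the highest per kb too.

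**Figure D1:**
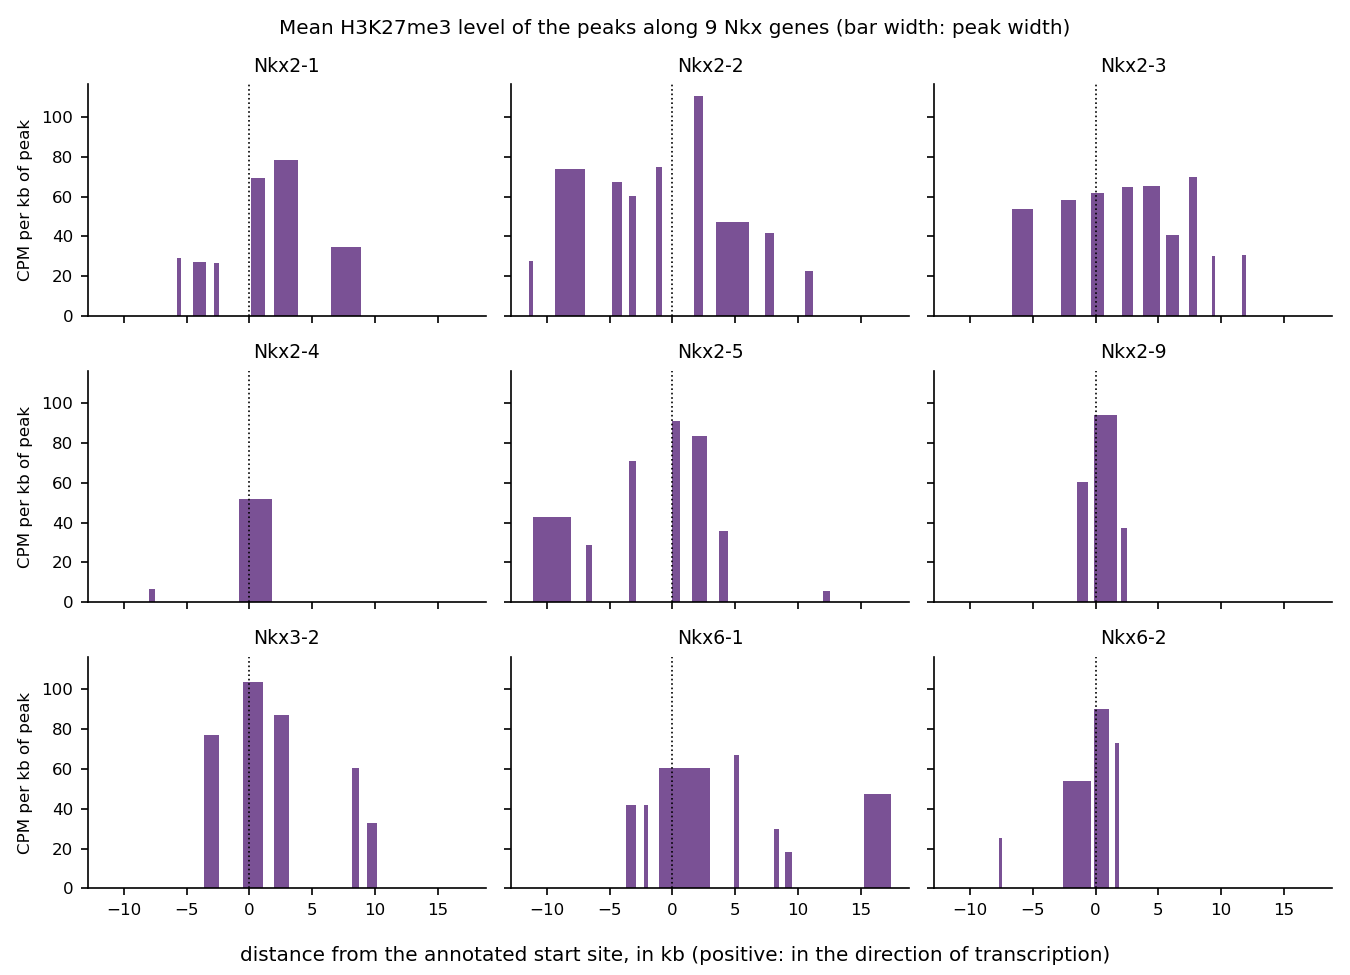
Mean H3K27me3 level over 7 libraries of the peaks along 9 Nkx genes, in CPM per kb of peak (vertical axis, from 0), against the distance of the peak midpoint from the annotated start site in kb (horizontal axis, positive in the direction of transcription). Each bar is a peak drawn at its width, and the dotted line is the start site, which lies in a peak for 7 genes and outside every peak for Nkx2-1 and Nkx2-2.

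Ordered by summed level per kb of peak, Nkx3-2 was highest at 79.3 CPM per kb, followed by Nkx2-9 (76.6), Nkx6-2 (64.8), Nkx2-2 (60.4), Nkx2-3 (56.5), Nkx2-5 (51.8), Nkx6-1 (51.2), Nkx2-1 (50.5), Nkx2-4 (44.4) and Nkx6-3 (27). The ranges over the 7 libraries did not overlap between Nkx2-9 and Nkx6-2 or between Nkx2-4 and Nkx6-3, and overlapped between all other neighbours in this order. All 10 values were above the median of 9.36 CPM per kb over all genes with a peak. Nkx3-2 exceeded 99.5% of those genes and Nkx6-3, the lowest, exceeded 82.7%.

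The question of the comparison between deletions was whether removal of a loop anchor changed H3K27me3 at Nkx genes. No Nkx peak and no Nkx gene was called in any of the 3 deletions at an adjusted p under 0.05 and an absolute log2 fold change over 1 in the edgeR quasi-likelihood test. Over all tested peaks outside the deleted run this rule called 1.49% in the Hoxa deletion, 0.00403% in the Wnt6 deletion and 0.0134% in the Hmx1 deletion, and over all genes, on counts summed over each gene's peaks, 0.698%, 0% and 0.0162%. All 57 peaks and all 10 genes passed the filter on low counts. Without a fold change minimum, 1 peak and 1 gene passed in the Hoxa deletion, both Nkx6-3 and both lower, where 8.47% of all peaks and 18.3% of all genes passed, and 4.14% and 6.05% in the lower direction. None passed in the Wnt6 deletion (0.0108% of all peaks and 0.00646% of all genes) or the Hmx1 deletion (0.0161% and 0.0388%). This holds for the test with the other deletions pooled. Where each deletion had its own term, Nkx6-3 passed as higher in the Wnt6 deletion, as given below. At an unadjusted p under 0.05, the Nkx peaks that passed numbered 5, 2 and 4 in the Hoxa, Wnt6 and Hmx1 deletion, where 20.7%, 5.16% and 8.94% of all peaks passed, and the Nkx genes 1, 1 and 1, where 29.0%, 5.73% and 13.3% of all genes passed. By DESeq2 no Nkx peak or gene was called at both thresholds either.

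Nkx2-2, Nkx2-9, Nkx6-1 and Nkx6-2 act in progenitors of the ventral neural tube. Nkx2-2, which specifies V3 interneurons and later pancreatic islet cells, had a summed level of 594, 554 and 547 CPM in the 3 Hoxa deletion libraries, 556 and 512 CPM in the Wnt6 deletion libraries and 553 and 605 CPM in the Hmx1 deletion libraries. Nkx2-9, its close relative in the floor region of the neural tube, had 256, 244 and 249 CPM, then 242 and 230 CPM, then 265 and 260 CPM, in the same order. For Nkx2-9 both Wnt6 deletion libraries lay below all Hoxa deletion libraries, and these below both Hmx1 deletion libraries, while the deletions overlapped for Nkx2-2.

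Nkx6-1, which specifies ventral progenitors, motor neurons and pancreatic beta cells, had 454, 447 and 440 CPM in the Hoxa, 453 and 421 CPM in the Wnt6 and 434 and 470 CPM in the Hmx1 deletion libraries. Nkx6-2, which acts with it in the neural tube and in oligodendrocytes, had 277, 244 and 249 CPM, then 267 and 227 CPM, then 255 and 266 CPM. The 3 deletions overlapped for both genes. Among the log2 fold changes of these 4 genes, the lowest adjusted p by edgeR was 0.525, for Nkx2-9 in the Hmx1 deletion (0.10 ± 0.068, SE).

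Nkx2-1, the master factor of thyroid, lung and ventral forebrain, had 367, 361 and 358 CPM in the Hoxa, 361 and 335 CPM in the Wnt6 and 375 and 383 CPM in the Hmx1 deletion libraries. Nkx2-4, its closest paralogue, had 130, 134 and 135 CPM, then 138 and 131 CPM, then 148 and 152 CPM. Both Hmx1 deletion libraries lay above all others for both genes. The log2 fold change in the Hmx1 deletion was 0.088 ± 0.060 (SE) for Nkx2-1 (adjusted p = 0.548, edgeR) and 0.17 ± 0.070 for Nkx2-4 (adjusted p = 0.334, edgeR), the largest of any Nkx gene in that deletion.

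Nkx2-5, an early factor of the heart field, had 393, 371 and 378 CPM in the Hoxa, 376 and 359 CPM in the Wnt6 and 362 and 393 CPM in the Hmx1 deletion libraries. Nkx2-3, required for spleen and gut-associated vessels, had 502, 459 and 456 CPM, then 473 and 437 CPM, then 475 and 494 CPM. For neither gene did any deletion stand apart. Nkx3-2, which acts in the axial skeleton and in spleen and stomach, had 433, 402 and 395 CPM in the Hoxa, 432 and 385 CPM in the Wnt6 and 435 and 452 CPM in the Hmx1 deletion libraries. Its Hmx1 deletion libraries were the highest, by a narrow margin over Hoxa deletion replicate 1, and the log2 fold change was 0.12 ± 0.064 (SE, adjusted p = 0.458, edgeR).

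Nkx6-3, a factor of the gastric antrum, had 126, 118 and 110 CPM in the Hoxa, 155 and 148 CPM in the Wnt6 and 133 and 132 CPM in the Hmx1 deletion libraries. As for Nkx2-9 the 3 deletions did not overlap one another, here with the Hoxa deletion lowest and the Wnt6 deletion highest. The highest mean of a deletion was 1.28 times the lowest, against 1.03 to 1.13 times for the other 9 genes.

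**Figure D2:**
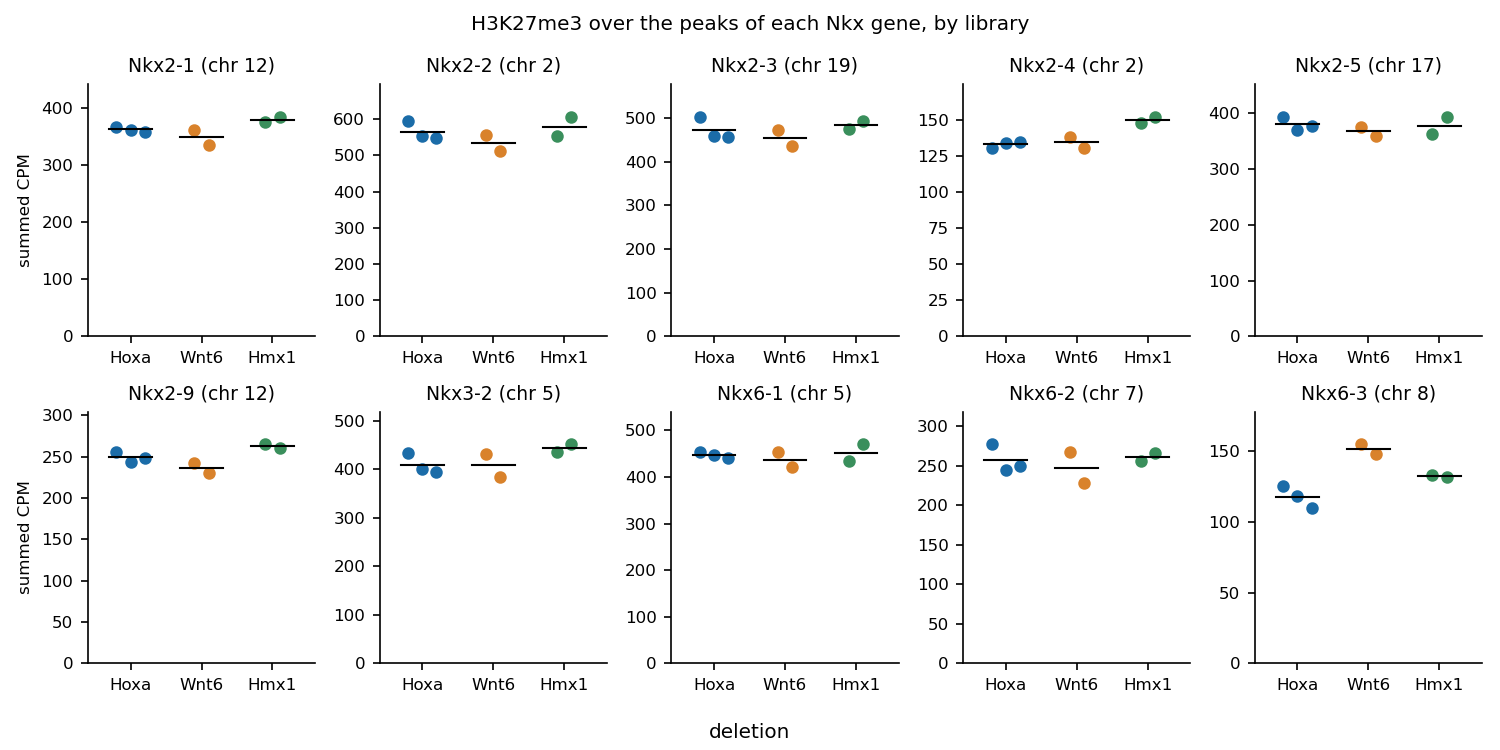
Summed H3K27me3 level of each Nkx gene in CPM (vertical axes, each from 0) in the 3 Hoxa, 2 Wnt6 and 2 Hmx1 deletion libraries (points), with the mean of each deletion as a line. The deletions separate fully for Nkx2-9 and Nkx6-3, most widely for Nkx6-3, at 110 to 126, 148 to 155 and 132 to 133 CPM.

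The libraries of a deletion lay wholly above or below all others for a few genes. In the Hmx1 deletion 4 Nkx genes lay wholly above the others (Nkx2-1, Nkx2-4, Nkx2-9 and Nkx3-2) and none below, where 6.71% of all genes lay above and 12.8% below. The Wnt6 deletion had 1 Nkx gene above (Nkx6-3, against 4.78% of all genes) and 1 below (Nkx2-9, against 5.79%), and the Hoxa deletion 1 below (Nkx6-3, against 9.17%) and none above (16.5%). Of the Nkx peaks, 10 lay above and 1 below in the Hmx1 deletion, against 6.95% and 7.99% of all peaks. In the Wnt6 deletion 3 peaks lay above (5.52% of all peaks) and 3 below (4.56%), and in the Hoxa deletion 1 above (9.1%) and 3 below (9.14%). These shares are over all genes or peaks, most of which were weaker than the Nkx genes or the median Nkx peak. The shares among strong genes or peaks were not computed. In the Hmx1 deletion the median log2 fold change was 0.055 over genes of at least 100 CPM, against -0.035 over all genes. Wnt6 deletion replicate 2, the deepest library, was the lowest of the 7 for 8 of the 10 genes, and Hmx1 deletion replicate 2 was the highest for 6. The median log2 deviation of the Nkx peaks from their mean was -0.080 and 0.075 in these libraries, and over all peaks of at least 40 CPM it was -0.10 and 0.049. The part of these library-wide shifts in the comparisons was not tested.

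**Figure D3:**
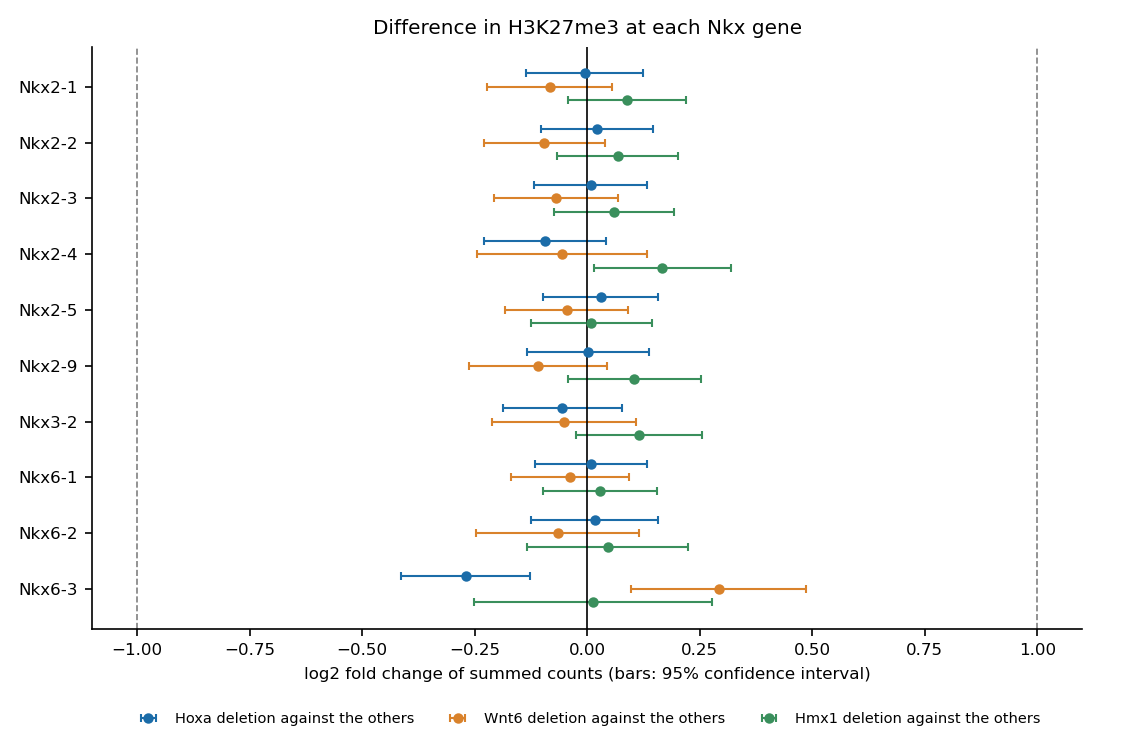
Log2 fold change of summed H3K27me3 counts at each Nkx gene (horizontal axis) for each deletion against the other deletions pooled, with 95% confidence intervals as bars and dashed lines at the fold change of the call rule. All intervals lie inside the dashed lines, and those of Nkx6-3 span -0.41 to -0.13 in the Hoxa and 0.097 to 0.49 in the Wnt6 deletion.

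The intervals bound the differences between deletions that these libraries could have missed, and not a change shared by all deletions. For the 9 genes other than Nkx6-3, the 95% confidence intervals of the log2 fold change ran from -0.23 to 0.16 in the Hoxa deletion, -0.26 to 0.13 in the Wnt6 deletion and -0.13 to 0.32 in the Hmx1 deletion. Those of single peaks outside Nkx6-3 were wider. They ran from -0.70 to 0.59 in the Hoxa, -1.16 to 0.72 in the Wnt6 and -0.68 to 1.08 in the Hmx1 deletion. The median log2 fold change over the 57 peaks was -0.012 in the Hoxa, -0.058 in the Wnt6 and 0.064 in the Hmx1 deletion, against -0.0053, -0.0024 and -0.0060 over all peaks. Over the stronger peaks, those of at least 40 CPM, the medians were -0.0077, -0.040 and 0.054, close to those of the Nkx peaks. These comparisons share libraries, since each deletion serves as a control of the others, so that a high deletion makes the others low. Values above 0 were found for 26, 19 and 42 of the 57 Nkx peaks (45.6%, 33.3% and 73.7%), against 49.2%, 49.6% and 49.1% of all peaks and 46.9%, 34.2% and 67.6% of those of at least 40 CPM.

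The single peaks with the lowest p in each direction gave no further call. On the higher side in the Hoxa deletion this was a Nkx2-2 peak at chr2:147189314-147189878, with 36.7, 38.6 and 32.6 CPM against 32.7, 30.2, 30.9 and 35.6 CPM in the others, which overlapped (log2 fold change 0.15 ± 0.10, SE, adjusted p = 0.448, edgeR). On the lower side in the Wnt6 deletion it was another Nkx2-2 peak at chr2:147183962-147184704, with 75.6 and 72.6 CPM against 76.5 to 92.3 CPM, where the deletion lay below all others by a small gap (log2 fold change -0.20 ± 0.099, adjusted p = 0.920, edgeR). In the Hmx1 deletion it was, on the higher side, a Nkx2-3 peak at chr19:43617959-43618942, with 49.4 and 43.7 CPM against 34.8 to 40.9 CPM (log2 fold change 0.31 ± 0.12, adjusted p = 0.451, edgeR). On the lower side it was a Nkx2-5 peak at chr17:26847992-26848445, with 9.64 and 12.2 CPM against 12.3 to 16.6 CPM (log2 fold change -0.32 ± 0.17, adjusted p = 0.603, edgeR). In both peaks the Hmx1 deletion libraries did not overlap the others. The remaining peak, lower in the Hoxa and higher in the Wnt6 deletion, was the strongest of Nkx6-3.

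Chromosome 5 allowed a comparison in cis with the Hmx1 deletion. The 12 peaks of Nkx3-2 and Nkx6-1 had a median log2 fold change of 0.098 in the Hmx1 deletion, from -0.13 to 0.27. The median was -0.034 over all 4624 tested peaks of the chromosome outside the deleted run, most of them weaker. Over peaks of at least 40 CPM on all chromosomes it was 0.054. None of the 12 peaks passed an unadjusted p under 0.05, with a lowest adjusted p of 0.655 in the edgeR test. Of the chromosome's peaks outside the deleted run, 0.151% were called at both thresholds.

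Nkx6-3 was the member that differed in the Hoxa deletion, and it lay on chromosome 8, which differed as a whole. Its summed level gave a log2 fold change of -0.27 ± 0.071 (SE) in the Hoxa deletion (adjusted p = 0.0044, edgeR), lower in 3 of 3 libraries. Its strongest peak had 47.6, 44.9 and 42.3 CPM in the Hoxa, 66.1 and 59.8 CPM in the Wnt6 and 51.2 and 51.2 CPM in the Hmx1 deletion libraries. Here too the Hoxa deletion lay below and the Wnt6 deletion above every other library, with a log2 fold change of -0.35 ± 0.10 in the Hoxa deletion (adjusted p = 0.020, edgeR). This call was lost without Hoxa deletion replicate 2 (adjusted p = 0.0852, edgeR) or 3 (0.117), without Wnt6 deletion replicate 1 (0.0900) and with the replicate number as a block (0.119). A second strong peak, in the gene body at chr8:23155971-23158231, had 49.1, 44.9 and 42.0 CPM, then 55.9 and 56.2 CPM, then 51.1 and 50.8 CPM (log2 fold change -0.25 ± 0.097, adjusted p = 0.115, edgeR). The 3 weaker peaks, of 3.62 to 16.9 CPM, had log2 fold changes of -0.52 to -0.04 in the Hoxa deletion.

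On chromosome 8, 96.6% of the 5579 tested peaks had a log2 fold change below 0 in the Hoxa deletion, with a median of -0.59, against 0.019 on other chromosomes outside the deleted run. Peak counts alone cannot tell apart a difference in H3K27me3 and one in the number of DNA copies of a chromosome. Copy number was not tested, and this limit holds for every chromosome 8 gene named here. An adjusted p under 0.05 in the lower direction was reached by 40.8% of these peaks and by 69.6% of the 1854 genes of the chromosome. The Nkx6-3 value was closer to 0 than most of the chromosome. Over its 1854 genes the median was -0.53, and 86.1% were lower than Nkx6-3. Over the 363 genes with at least 100 CPM, a subset chosen after seeing the data, the median was also -0.53, and 94.2% were lower. With the median of each chromosome removed from each library, Nkx6-3 was higher in the Hoxa deletion than in the others, by 0.29 ± 0.071 on the log2 scale (SE, adjusted p = 0.0040, edgeR), and its strongest peak gave 0.21 (adjusted p = 0.272, edgeR). The direction of the Nkx6-3 difference therefore depended on whether the chromosome-wide shift was kept. The shift was not confined to a distance from the gene: the median was -0.48 over the 17 other peaks within 100 kb, -0.43 over 87 peaks up to 1 Mb, -0.52 over 332 peaks up to 5 Mb and -0.59 over the 5138 farther peaks. In the wider window of 50 kb a single peak was called at both thresholds, at chr8:23112659-23113168 and 40.1 kb from Nkx6-3, with 2.82, 3.21 and 2.13 CPM in the Hoxa and 4.32 to 6.93 CPM in the other libraries (log2 fold change -1.09 ± 0.21, SE, adjusted p = 2.5e-04, edgeR). At both thresholds 9.55% of the peaks of chromosome 8 were called.

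**Figure D4:**
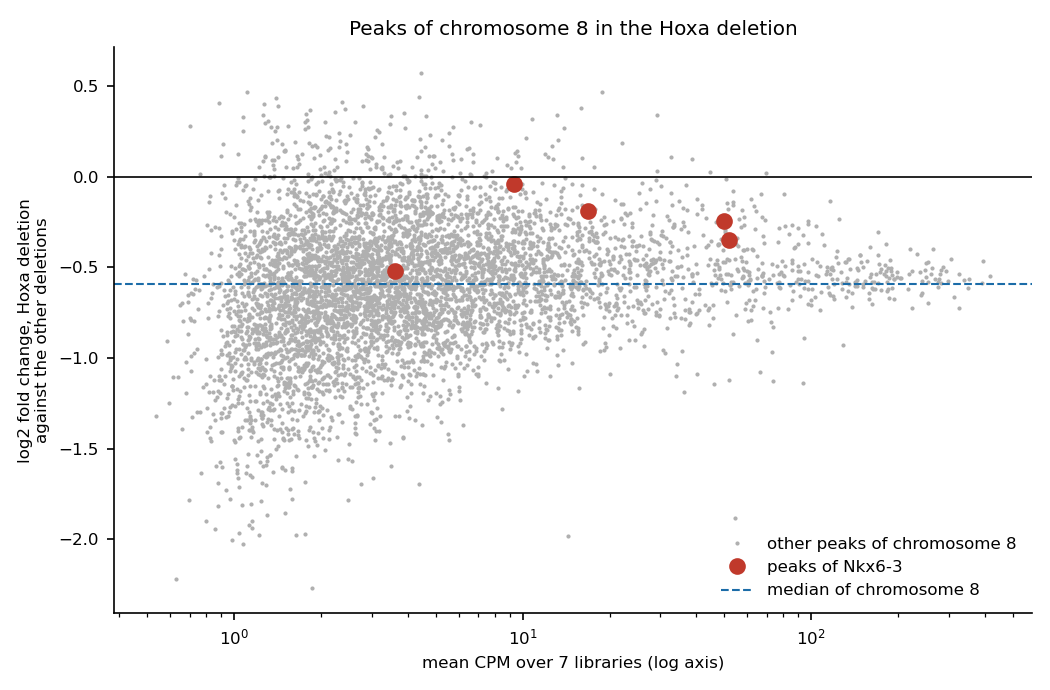
Log2 fold change in the Hoxa deletion against the other deletions (vertical axis) of each tested peak of chromosome 8, against its mean level over 7 libraries in CPM (horizontal log axis), with the 5 Nkx6-3 peaks as large red points and the chromosome median of -0.59 as a dashed line. Most peaks of the chromosome lie below 0. All 5 Nkx6-3 peaks lie between the dashed line and 0, and so above the chromosome median.

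The other 2 deletions were compared as well. Between the Wnt6 and Hmx1 deletions the genes of chromosome 8 with at least 100 CPM had a median log2 fold change of -0.057, and that of all genes of the chromosome was 0.0091. Nkx6-3 was higher in the Wnt6 deletion by 0.19 ± 0.082 (SE), which did not pass the test (adjusted p = 0.393, edgeR) and lay above 83.5% of all 1854 genes of the chromosome and 99.2% of the 363. Against the Wnt6 deletion alone, the Hoxa deletion gave -0.36 ± 0.073 (adjusted p = 1.67e-04, edgeR). Against the Hmx1 deletion alone it gave -0.17 ± 0.076 (adjusted p = 0.115, edgeR), and the call was lost. It was also lost without Hoxa deletion replicate 3 (-0.22, adjusted p = 0.0667, edgeR) and with a window of 2 kb (-0.21, adjusted p = 0.0702, edgeR). Nkx6-3 was higher in both Wnt6 deletion libraries than in all others, with 0.29 ± 0.089 (adjusted p = 0.837, edgeR) where the other deletions were pooled, and 0.28 (adjusted p = 0.00855, edgeR) where each deletion had its own term. The pooled test takes the gap between the Hoxa and Hmx1 deletions as spread.

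Genes with a pattern over the 7 libraries like that of Nkx6-3 were sought among 18054 genes of at least 10 CPM on other chromosomes or over 1 Mb away. The most alike were Bcl2l14 on chromosome 6 (Pearson r of log2 CPM = 0.991) and, on chromosome 11, Arhgap44 and LOC115487730, which share the same peaks (r = 0.985). A correlation above 0.9 was found for 179 genes, of which 84 (46.9%) lay on chromosome 8, a chromosome that held 6.36% of the genes searched. With 7 libraries of 3 deletions these values describe likeness only.

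Other developmental genes that act beside Nkx factors in the same tissues were read from the same fit. All 30 such genes had peaks, with a median of 52.4 CPM per kb, close to the 54.1 CPM per kb of the Nkx genes. None was called at both thresholds in any deletion. At an adjusted p under 0.05 alone, 2 were lower in the Hoxa deletion and none was higher, and none passed in the other deletions. Both lay on chromosome 8, namely Irx3, a neural tube patterning factor (log2 fold change -0.55 ± 0.063, SE), and Hand2, a heart factor (-0.55 ± 0.067). The median log2 fold change of the 30 genes was -0.0049 in the Hoxa, -0.079 in the Wnt6 and 0.083 in the Hmx1 deletion, and that of the 10 Nkx genes was 0.0045, -0.061 and 0.063. Over all genes the medians were 0.047, -0.033 and -0.035, and over all genes of at least 100 CPM -0.012, -0.038 and 0.055.

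By tissue the median levels per kb were alike, while single genes within a list differed widely. In the pancreas list they ran from 25.3 (Pax4) to 85.1 CPM per kb (Ptf1a). The median was 51.1 CPM per kb for 8 ventral neural tube genes, 55.2 for 5 foregut, thyroid and lung genes, 52.4 for 7 pancreas genes, 58.9 for 5 heart genes and 52.1 for 5 genes of somite, stomach and spleen. Among the latter, Meox1 was the lowest of all 30 at 11.8 CPM per kb. Genes of the pluripotent state, which mESCs express, had a peak in 7 of 8 cases and a median of 7.14 CPM per kb, from 5.73 (Nanog) to 18.5 (Sox2). In the Hoxa deletion 2 of them were higher, Klf4 (log2 fold change 0.60 ± 0.091) and Tfcp2l1 (0.84 ± 0.18), at an adjusted p under 0.05 in the edgeR test, which 12.2% of all genes passed in the higher direction. Of 7 fibroblast genes that feeder cells use, 6 had a peak, with a median of 31.0 CPM per kb, from 19.4 (Col1a2) to 49.0 (Prrx1), and none passed. Their part in the results was not tested.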

How the data were processed

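The authors deposited a single table of raw counts over peaks, without normalization, with 7 H3K27me3 columns that were matched to samples by their titles. Per the labels, the processing notes name Trimmomatic, Bowtie2, SAMtools, Picard, MACS2 and deepTools and the build mm10, with no version or role. How the peak list was made and whether reads or fragments were counted are not given in the sources used here. The choice of libraries for peak calling can favour their own strong peaks. The 7 IgG libraries were not analysed here, and no background was subtracted. PCR duplicates make reads less independent than their number, and depth sets the precision of weak peaks.

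Peaks within 10 kb of a RefSeq gene body (GRCm38.p6) were joined to genes and their counts summed per gene. Positions are as deposited. Each deletion was compared with the other 2 pooled by glmQLFit and glmQLFTest of edgeR 4.0.16 (R 4.3.3, limma 3.58.1) over all peaks or all genes, after filterByExpr (which removed 19 peaks and 5 genes) and TMM scaling, with Benjamini-Hochberg adjustment. CPM are TMM-scaled, and values are means ± SD over 7 libraries unless stated. DESeq2 1.42.0 was an alternative. Beside all members, the text names each member's strongest peak, peaks that passed a threshold, the peaks with the lowest p per direction and deletion, and the genes most like the most variable member. On simulated counts of fixed dispersion (0.02) with 100 features changed by 4-fold, edgeR recovered 99% to 100% of these. A 4-fold change is far larger than any difference at an Nkx gene. This recovery therefore does not describe the power for changes of the size seen here. Replicates differed by more than sampling noise (chi-square per degree of freedom 1.95 to 3.31). The members and lists were chosen with earlier results of these data known.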

Additional observations from a re-analysis of the deposited data

How the results depend on the processing

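Of 905 values recomputed under alternatives, 844 kept their direction and, where tested, their side of the call at both thresholds. No Nkx peak or gene was called at both thresholds under any of them within the 10 kb window. With the adjusted p alone in the pooled test, the Hoxa deletion gave 1 peak and 1 gene, and with a window of 50 kb 1 peak at both thresholds. With a term per genotype, Nkx6-3 passed the adjusted p in the Wnt6 deletion. Sign changes numbered 58. Only 2 of them were of values called at an adjusted p under 0.05, those of Nkx6-3 and its strongest peak in the Hoxa deletion, which turned to 0.29 and 0.21 with chromosome medians removed.

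Log2 fold changes that changed sign were, with chromosome medians removed, in the Hoxa deletion Nkx2-3 -0.088, Nkx2-5 -0.0044, Nkx2-9 -0.0050, Nkx6-1 -0.013, and Nkx6-2 -0.0032, and Nkx6-3 -0.058 in the Wnt6 and -0.31 in the Hmx1 deletion. Against the Hmx1 deletion alone, Hoxa deletion values were Nkx2-2 -0.039, Nkx2-3 -0.040, Nkx2-9 -0.074, Nkx6-1 -0.019 and Nkx6-2 -0.028. Against the Wnt6 deletion alone, Nkx2-1 was 0.059 and Nkx3-2 0.0065 in the Hoxa and Nkx6-3 -0.19 in the Hmx1 deletion. Against the Hoxa deletion alone, Nkx2-4 was 0.012 in the Wnt6, and Nkx2-5 -0.0071 and the strongest Nkx6-3 peak 0.19 in the Hmx1 deletion. With library totals, Nkx2-1 was 0.0069 in the Hoxa, and Nkx2-5 -0.023, Nkx6-1 -0.0028 and Nkx6-3 -0.021 in the Hmx1 deletion. With a term per genotype Nkx6-3 was -0.011 in the Hmx1 deletion, and by DESeq2 Nkx2-1 was 0.00071 in the Hoxa deletion. Windows of 0, 2 and 50 kb gave Nkx2-3 -0.0026 (Hmx1), Nkx2-1 0.00013 (Hoxa), and Nkx2-9 -0.021 (Hoxa), Nkx6-1 -0.012 (Hoxa) and Nkx2-5 -0.0053 (Hmx1).

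Between libraries with the same replicate number in their titles, correlations of deviations ran from -0.037 to 0.083. Where a deletion has 2 libraries their deviations mirror each other, so these correlations cannot decide on pairing. Total counts were lower in replicate 1 than in replicate 2, at 8656908 against 25595584 for Hoxa. They were 9982841 against 36563541 for Wnt6 and 6016500 against 25798208 for Hmx1. Whether the replicate number marks a shared batch was not tested. As a replicate block it called no Nkx peak or gene, turned Nkx2-1 to 0.0023 in the Hoxa and Nkx6-3 to -0.044 in the Hmx1 deletion, and gave Nkx6-3 -0.22 (adjusted p = 0.0608, edgeR) and its strongest peak -0.31 (adjusted p = 0.119, edgeR) in the Hoxa deletion.

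With each library left out in turn, the values that changed sign ranged, in the Hoxa deletion, from -0.044 to 0.019 for Nkx2-1, -0.019 to 0.062 for Nkx2-2, -0.041 to 0.032 for Nkx2-3, -0.036 to 0.031 for Nkx2-9, -0.018 to 0.034 for Nkx6-1 and -0.043 to 0.051 for Nkx6-2. In the Wnt6 deletion they ranged from -0.14 to 0.031 for Nkx3-2, -0.093 to 0.013 for Nkx6-1 and -0.18 to 0.045 for Nkx6-2. In the Hmx1 deletion they ranged from -0.048 to 0.066 for Nkx2-5, -0.027 to 0.085 for Nkx6-1, -0.045 to 0.077 for Nkx6-3 and -0.092 to 0.070 for its strongest peak. Where a deletion was left with 1 library, that library was assumed to vary like the others. The restrictions to genes of at least 100 CPM and peaks of at least 40 CPM and the distance bins were chosen after seeing the data. The cause of these changes was not tested.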
